A study of Mus musculus with 6 samples.

Results

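In a pair of mouse keratinocyte lines that differ by a restored integrin, 37 autosomal protein-coding genes were on in one line and nearly silent in the other. They were taken from 10368 autosomal protein-coding genes (GENCODE M21 types) with a mean of at least 2 CPM (a gene's count divided by the library's total count, times 1e6) in one line. A gene was called switched where the 2 group means, each with 0.05 CPM added, differed by a ratio of at least 16, which is 4.0 on the log2 scale. The ratio was reached by 51 genes, of which 14 were left out by name and are not described as members. Of the 37, 25 were on in the line without the integrin and 12 were on in the line with it. The values that chose these genes are given as a description, and no test of them is made.

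Whether a gene is transcribed at all in a cell type depends largely on the state of its promoter. CpG-rich promoters are unmethylated by default and open in most tissues, and they can be shut by DNA methylation or by Polycomb repression. CpG-poor promoters are more often bound to a cell type and are commonly methylated where the gene is off. Silencing can be kept through many cell divisions, can stop at a single promoter or can take in several neighbouring genes, and genes that start head to head can share an open promoter.

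RNA of the line MK-546, written MK-/- and here called Control, was compared with RNA of MK-546-ha3A, written MK-/-:ha3 and here called 3A. Both are immortalized mouse keratinocytes from skin, both lack their own α3 integrin subunit, and 3A carries human α3 in addition. The cells were untreated, were grown on collagen at 33 °C and 8% CO2, and were taken at 50 to 80% confluence, with 3 libraries per line. The sources used here do not give the age, sex and strain of the source animals, the promoter that drives human α3, or whether 3A is a clone or a pool. Each group is a single line, so human α3 and the separate descent of 3A cannot be told apart. Nothing in the labels says that libraries of a line came from separate cultures, so p-values measure the spread between these libraries, which may be technical.

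Total counts ranged from 25634204 to 36245240 per library, so 1 count is between 0.0276 and 0.0390 CPM. Mouse Itga3, the gene of the missing subunit, stood at 33.9, 39.5 and 41.4 CPM in Control 1, 2 and 3 and at 82.1, 72.6 and 58.6 CPM in the 3A libraries (edgeR adjusted p = 0.0362), and whether human α3 reads were counted there is not stated. Gene-level counts cannot tell whether the deleted part was read, so they check neither label. All 12 keratinocyte markers reached 1 CPM. Their summed level was 11819 to 15522 CPM in Control against 10139 to 12671 CPM in 3A. Of the 12, 0 were called higher and 2 lower by edgeR (0 and 4 at an unadjusted p under 0.05, 0 and 3 by DESeq2). The 2 were Trp63, the basal-layer transcription factor p63, at 136 ± 16.3 and 93.4 ± 16.3 CPM (adjusted p = 0.0491), and Perp, a desmosome-associated membrane protein, at 967 ± 85.2 and 594 ± 30.0 CPM (adjusted p = 0.0247). Summed over 8 genes, fibroblast markers stayed between 2.12 and 3.57 CPM in every library, and those of 5 endothelial genes between 0.420 and 0.966 CPM. Summed over 7 genes, leukocyte markers stood at 56.5 to 77.9 CPM in Control against 45.7 to 54.6 CPM in 3A, of which 49.0 and 37.3 CPM were Cd74, while the defining Ptprc held 3 counts in all. Of single markers of other cell types, Piezo2 was called higher and Acta1 and Pmel lower in 3A, each at under 2 CPM. Control 1 stood apart, since its log2 CPM correlated at 0.957 and 0.953 with Control 2 and Control 3 and at 0.955 with 3A 2, whereas Control 2 and Control 3 correlated at 0.988 (across genes, which are not replicates).

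All 37 genes passed the low-count filter of the fit over all genes, and in all 37 the 3 libraries of one line lay above the 3 of the other. Of the 10368 eligible genes 34.3% were likewise without overlap, and since the rule used this contrast nothing is read from the count. Summed over the 25 genes on in Control, expression was 289, 264 and 264 CPM in Control 1, 2 and 3 and 4.80, 3.86 and 3.77 CPM in 3A 1, 2 and 3. Over the 12 genes on in 3A, the sums were 78.7, 82.4 and 86.9 CPM in 3A and 3.00, 2.23 and 1.76 CPM in Control. Both sums were thus close within a line. Control 1, the library that stood apart, held between 0 and 6.81% (median 2.69%) of the 3A mean for the 12 genes on in 3A, and its sum over them was the highest of the Control libraries. RNA was taken from bulk cultures, in which fewer expressing cells and less RNA per cell cannot be told apart.

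**Figure D1:**
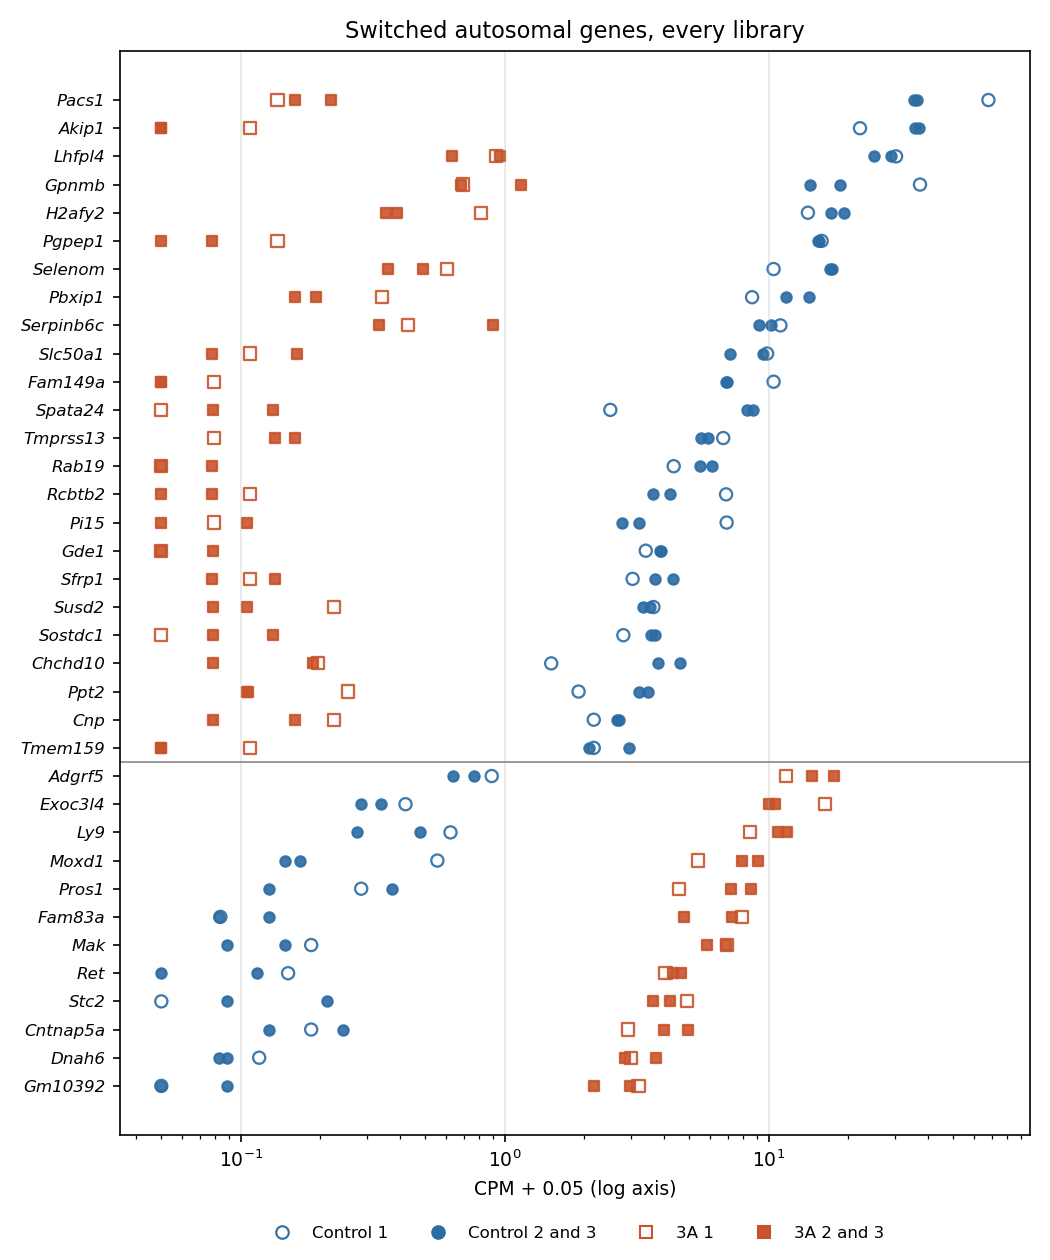
Level of 36 of the 37 switched genes in each of the 6 libraries, as CPM + 0.05 on a log axis. Circles are Control and squares 3A, with open symbols for library 1 of each line. The horizontal line divides the genes on in Control (24 drawn) from the 12 on in 3A, and no gene has overlapping groups.

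Switching at this ratio was rare and lopsided. Without the genes left out by name, 604 eligible genes were at least 2 times higher in 3A by the same measure and 517 at least 2 times higher in Control. At a ratio of 8 the numbers were 39 and 52, at 16 they were 12 and 25, at 64 they were 1 and 8, and at 128 they were 0 and 4. Mean level in the on line ran from 2.74 to 14.6 CPM (median 6.55) in the set on in 3A and from 2.35 to 46.5 CPM (median 5.99) in the set on in Control. In the off line the mean was at most 0.1 CPM for 6 of 12 and 15 of 25 genes. By pooled counts (a line's counts divided by its summed totals), the on line exceeded the off line by 20.3 to 236 times in the set on in 3A (median 50.4) and by 19.8 to 1660 times in the set on in Control (median 87.3). In 1 and 8 genes the off line held 1 to 3 counts in all, so the upper ends of these ranges are loosely bounded, and each interval on a ratio is a 95% exact binomial one that covers counting error only.

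**Figure D2:**
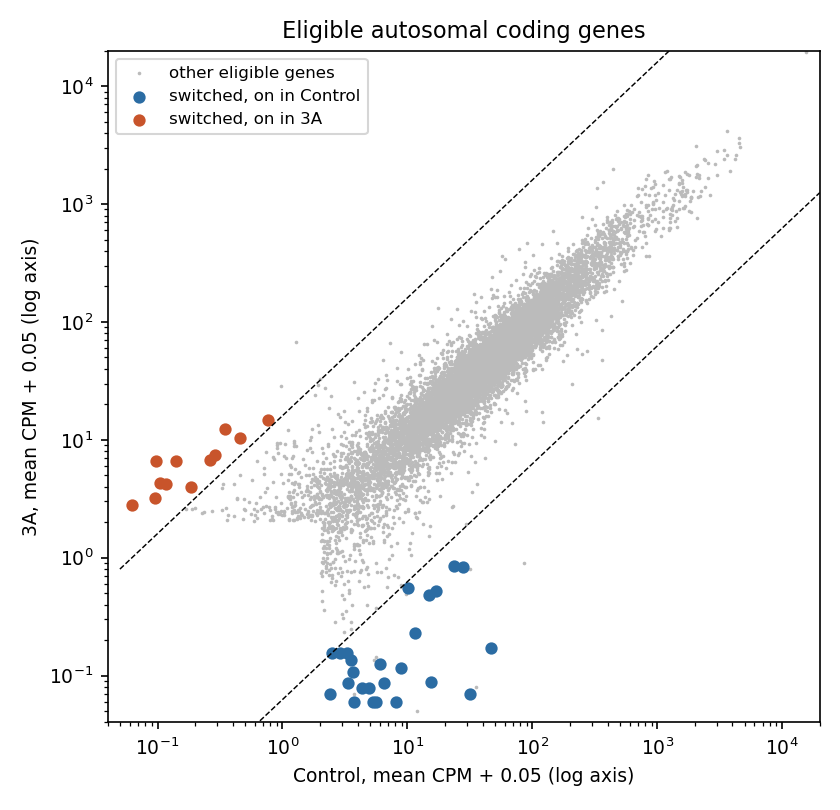
Mean CPM + 0.05 in Control (x) against 3A (y) for 10368 eligible autosomal coding genes, both axes logarithmic, with dashed lines at a ratio of 16. Coloured points are the 37 switched genes, and grey points beyond the lines are the 14 genes left out by name.

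Just inside the threshold lay Cnp (ratio 16.2), Serpinb6c (18.2), Ppt2 (18.4) and Adgrf5 (19.1), and just outside it Defb41 (15.5), Neurl3 (15.3), Dhx58 (15.2) and Sox13 (15.1). Cnp, a phosphodiesterase best known from myelin, stood at 2.12, 2.65 and 2.61 CPM in Control 1, 2 and 3 against 0.176, 0.110 and 0.0284 CPM in 3A 1, 2 and 3. Ppt2, a lysosomal thioesterase, stood at 1.85, 3.43 and 3.16 CPM in Control against 0.205, 0.0552 and 0.0567 CPM in 3A. Both are low in Control too, with Control 1 the lowest. Outside the line, Neurl3, an E3 ubiquitin ligase, stood at 1.62, 2.13 and 1.83 CPM in Control against 30.0, 28.6 and 29.1 CPM in 3A, and Dhx58, the RNA sensor LGP2, at 29.6, 29.0 and 29.7 CPM in Control against 2.37, 1.32 and 1.99 CPM in 3A. Defb41, a beta-defensin, stood at 0.101, 0.0970 and 0.156 CPM in Control against 2.46, 2.12 and 3.09 CPM in 3A. Sox13, a transcription factor, stood at 6.27, 5.14 and 5.27 CPM in Control against 0.351, 0.331 and 0.284 CPM in 3A. None of these 4 has overlapping groups either, as in 34.3% of all eligible genes, and since they were picked by ratio nothing is read from this. The nearest ratios on either side of the threshold were close, 16.2 for Cnp and 15.5 for Defb41. Membership at the edge turned on single libraries: Cnp was lost without Control 2, Control 3 or 3A 3, Ppt2 without 3A 2 or 3A 3, and Serpinb6c without 3A 3, whereas the other 34 members met the rule with each of the 6 libraries left out in turn.

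Promoter sequence was not used by the rule. RefSeq promoters (GRCm38.p6, 250 bases before to 50 bases after the start) whose start lay within 1 kb of the GENCODE start were matched for 23 of the 37 genes, 7 on in 3A and 16 on in Control, and for 7679 of the 10368 eligible genes. In the 300 bases, the median number of CpG dinucleotides was 13 in the set on in 3A, 15.5 in the set on in Control and 22 in 7656 other eligible genes. The ratio of observed to expected CpG reached 0.6 in 13 of 23 switched genes (56.5%) and in 79.9% of the others, and at least 10 CpG stood in 16 of 23 (69.6%) and 88.7%. The switched promoters thus ran from CpG-poor to among the CpG-richest, with Exoc3l4 and Fam149a at 4, Chchd10 at 5 and Pbxip1 at 6 at the low end, and Akip1 at 30 and Pacs1 at 44 at the high end. These counts describe the genes that could be matched, and the difference in share was not tested. The letters TATAAA, searched on both strands, were in 3 of 23 (13.0%; Mak, Selenom and Serpinb6c) against 6.28% of the others, and CCAAT, on both strands (neither motif contains the other), in 6 of 23 (26.1%) against 39.3%.

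**Figure D3:**
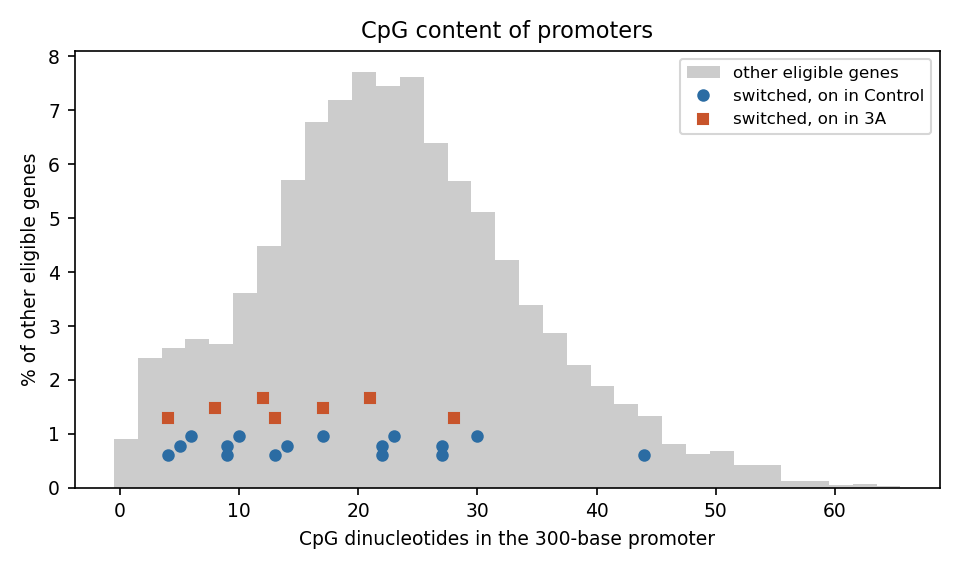
CpG dinucleotides per 300-base promoter (x) as a histogram over 7656 other eligible genes, in % of them (y), with the 16 switched genes on in Control as circles and the 7 on in 3A as squares. The height of the points carries no value, and the points spread from 4 to 44 CpG, with medians of 15.5 and 13 left of the median of 22.

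The contrast is visible in the letters. Shown are the stretches before the start that hold no annotated exon, 5′ to 3′ on the gene's strand, with each CpG in capitals. Akip1 (chr7:109703609-109703677, plus strand) is shown because its 69 bases fill most of the gap to the start of the neighbour St5. Pacs1 (chr19:5273120-5273369, minus strand) is the CpG-richest member, with 36 CpG in the 250 bases. Slc50a1 (chr3:89270571-89270820, minus) and Pbxip1 (chr3:89436454-89436703, plus) are near each other on chromosome 3 and hold 14 and 5. Stc2 (chr11:31370075-31370311, minus) is the CpG-richest matched gene on in 3A, with 21 CpG in 237 bases.
Akip1: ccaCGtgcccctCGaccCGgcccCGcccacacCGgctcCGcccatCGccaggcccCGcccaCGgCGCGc
Pacs1: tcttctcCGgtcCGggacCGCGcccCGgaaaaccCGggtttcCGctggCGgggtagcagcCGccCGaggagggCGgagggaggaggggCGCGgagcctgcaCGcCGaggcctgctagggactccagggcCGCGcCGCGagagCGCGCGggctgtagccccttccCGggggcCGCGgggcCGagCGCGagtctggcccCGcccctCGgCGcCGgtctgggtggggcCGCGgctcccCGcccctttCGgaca
Slc50a1: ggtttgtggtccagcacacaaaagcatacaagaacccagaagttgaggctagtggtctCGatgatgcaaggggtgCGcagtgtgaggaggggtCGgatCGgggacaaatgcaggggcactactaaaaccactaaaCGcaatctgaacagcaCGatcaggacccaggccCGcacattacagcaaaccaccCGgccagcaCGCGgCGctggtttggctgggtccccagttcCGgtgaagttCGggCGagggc
Pbxip1: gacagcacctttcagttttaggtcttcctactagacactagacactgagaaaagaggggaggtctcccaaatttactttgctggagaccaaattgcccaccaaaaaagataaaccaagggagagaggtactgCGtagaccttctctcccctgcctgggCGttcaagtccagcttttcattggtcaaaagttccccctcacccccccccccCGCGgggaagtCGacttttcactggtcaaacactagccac
Stc2: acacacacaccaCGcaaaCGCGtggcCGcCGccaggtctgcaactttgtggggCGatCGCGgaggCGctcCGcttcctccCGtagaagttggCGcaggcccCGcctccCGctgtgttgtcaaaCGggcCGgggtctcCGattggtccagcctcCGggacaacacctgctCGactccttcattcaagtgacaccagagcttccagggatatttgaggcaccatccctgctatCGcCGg
Nothing in these data measures methylation or chromatin, so the letters show only what each promoter is made of.

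Among the genes on in 3A, 4 code for cell-surface proteins. Ret, the receptor tyrosine kinase of the GDNF-family ligands (chr6:118151745-118197718), stood at 4.01, 4.58 and 4.28 CPM in 3A 1, 2 and 3 and held 3, 2 and 0 counts in Control 1, 2 and 3. The 3A libraries were tight (4.29 ± 0.286 CPM, SD, n = 3), and pooled counts gave 74.1 times the Control level (31.5 to 229). Its co-receptors were low in both lines, as Gfra1 stood at 0.0665 CPM in Control against 0.275 CPM in 3A, Gfra2 at 0.533 and 0.771 CPM (edgeR adjusted p = 0.424), Gfra3 at 0 in every library and Gfra4 at 1 count in all. Adgrf5, an adhesion G protein-coupled receptor that controls surfactant in lung epithelium (chr17:43360451-43459557), stood at 11.5, 14.6 and 17.6 CPM in 3A and 0.842, 0.712 and 0.585 CPM in Control. It had the highest mean of the set on in 3A and the least silent off state, at 20.3 times (15.7 to 26.6). Ly9, a receptor of the SLAM family known from lymphocytes (chr1:171588624-171607410), stood at 8.46, 10.8 and 11.6 CPM in 3A and 0.573, 0.226 and 0.429 CPM in Control. Most of the family was silent in both lines, since Slamf1, Slamf7 and Cd84 held 0 counts in all 6 libraries, Slamf6 and Cd48 held 1 each and Cd244a 6. Slamf8 was read in both, at 7.36 ± 0.984 CPM in Control and 10.5 ± 0.403 CPM in 3A (edgeR adjusted p = 0.106), and Slamf9 was low, at 0.257 and 0.509 CPM. The leukocyte marker sum, mostly Cd74 (49.0 and 37.3 CPM), was lower in 3A, where Ly9 was higher. Which cells the Ly9 reads came from was not tested. Cntnap5a, of the neurexin-related contactin-associated proteins (chr1:115684756-116587323), stood at 2.87, 3.97 and 4.88 CPM in 3A against 4, 6 and 2 counts in Control. At 902.6 kb it is the longest of the 37 genes, and its paralogue Cntnap5b held 29 counts in all libraries together. In Ly9, Adgrf5 and Cntnap5a alike, 3A 1 was the lowest of the 3A libraries.

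Secreted proteins on in 3A were Pros1 and Stc2. Pros1 codes for protein S, an anticoagulant cofactor that also activates the TAM receptors (chr16:62854307-62929346). Its level was 4.51, 7.15 and 8.54 CPM in 3A and its counts were 7, 10 and 2 in Control, with 3A 1 the lowest on library and a pooled ratio of 30.7 (19.5 to 51.2). The other TAM ligand, Gas6, went the other way, from 2.46 ± 0.245 CPM in Control to 0.668 ± 0.285 CPM in 3A (SD, n = 3), a log2 change of -1.95 (SE 0.35, edgeR adjusted p = 0.0127). Stc2, a stanniocalcin glycoprotein hormone (chr11:31357307-31370074), stood at 4.86, 4.17 and 3.60 CPM in 3A and held 0, 5 and 1 counts in Control. Stc1, its only paralogue, held 4 counts over all 6 libraries.

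Enzymes on in 3A were Moxd1 and Mak. Moxd1, a monooxygenase related to dopamine beta-hydroxylase (chr10:24223517-24302790), stood at 5.35, 7.84 and 9.08 CPM in 3A and held 15, 3 and 3 counts in Control. Most of its counts in Control were thus in Control 1, and the related Dbh and Moxd2 held 1 count each. Mak, a kinase of cilia and male germ cells (chr13:41025008-41079706), stood at 6.91, 5.79 and 6.84 CPM in 3A and held 4, 3 and 1 counts in Control, a pooled ratio of 70.1 (35.4 to 163). The kinase most like it, Ick, was present in both lines at 27.0 ± 2.66 and 18.1 ± 3.48 CPM (edgeR adjusted p = 0.0702).

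Motor, trafficking and scaffold genes made up the rest of the named genes on in 3A. Dnah6, an axonemal dynein heavy chain of motile cilia (chr6:73017606-73221651), stood at 2.96, 2.81 and 3.69 CPM in 3A and held 2, 1 and 1 counts in Control. No other axonemal heavy chain reached a like level, since the 14 others counted all stayed under 1 CPM in both lines. Dnah5 was among them, at 0 in Control and 0.234 CPM in 3A, the direction of Dnah6. Exoc3l4, related to an exocyst subunit (chr12:111417017-111431678), stood at 16.2, 10.5 and 9.96 CPM in 3A and held 11, 9 and 6 counts in Control. Among relatives that share its symbol stem, Exoc3l2 fell from 5.87 ± 0.907 to 1.98 ± 0.0711 CPM (log2 change -1.63, SE 0.20, edgeR adjusted p = 0.00313). Exoc3l stood at 0.512 and 0.540 CPM (adjusted p = 0.995), and relatives under other names were not looked up. Fam83a, of a family that anchors casein kinase 1 (chr15:57985419-58011009), stood at 7.84, 7.23 and 4.71 CPM in 3A and held 1, 1 and 2 counts in Control. With 142 times (55.2 to 523) it had the largest ratio of the set that rests on more than 3 off counts, and 3A 3 was its lowest on library. Its relatives Fam83d, Fam83f, Fam83g and Fam83h were at 20.2 to 92.8 CPM in both lines and were not called. The predicted gene Gm10392 (chr11:77516660-77519198), singled out after its values were seen, stood at 3.16, 2.92 and 2.13 CPM in 3A and held 0, 0 and 1 counts in Control. It overlaps Abhd15 on the other strand, and without a stated strand setting their reads cannot be told apart.

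Nuclear and signalling genes led the set on in Control. Akip1, which binds the catalytic subunit of protein kinase A (chr7:109703690-109712189), stood at 22.1, 36.9 and 35.6 CPM in Control 1, 2 and 3 and held 2, 0 and 0 counts in 3A 1, 2 and 3. It had the highest level per exon length of all 37 (24.2 CPM per kb of exon) and the largest ratio, 1660 times with an interval of 459 to 13716 because only 2 counts were seen in 3A. H2afy2, the histone variant macroH2A2 (chr10:61738665-61784147), stood at 14, 17.1 and 19.2 CPM in Control against 0.761, 0.303 and 0.340 CPM in 3A. Its close relative H2afy, macroH2A1, was present in both lines at 218 ± 33.8 and 185 ± 42.8 CPM (SD, n = 3, edgeR adjusted p = 0.364). Pbxip1, a binding partner of PBX homeodomain proteins (chr3:89436706-89450952), stood at 8.59, 11.5 and 14.2 CPM in Control and held 10, 4 and 5 counts in 3A. Rcbtb2, with RCC1 and BTB domains, averaged 4.87 ± 1.73 CPM in Control with 3 counts in 3A, while Rcbtb1 on the same chromosome stood at 17.4 and 20.8 CPM (edgeR adjusted p = 0.577).

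Trafficking and transport genes were next. Pacs1, a cargo-sorting adaptor of the trans-Golgi network (chr19:5133158-5273119), stood at 67.8, 35.4 and 36.2 CPM in Control and held 3, 4 and 6 counts in 3A. It was the most abundant switched gene by CPM (46.5 ± 18.5 CPM in Control, SD, n = 3), was 1.89 times higher in Control 1 than in the mean of Control 2 and 3, and had a pooled ratio of 380 (222 to 715). The paralogue Pacs2 was at 55.5 ± 14.6 and 50.4 ± 2.01 CPM (edgeR adjusted p = 0.423). Rab19, a small GTPase (chr6:39381175-39390380), stood at 4.31, 5.43 and 6.05 CPM in Control and held 0, 1 and 0 counts in 3A. Slc50a1, the mammalian SWEET sugar transporter (chr3:89268246-89270570), stood at 9.80, 9.44 and 7.06 CPM in Control and held 2, 1 and 4 counts in 3A. It is the only SWEET gene of the mouse. Lhfpl4, which takes part in assembling GABA-A receptors at synapses (chr6:113168090-113195384), stood at 30.3, 24.9 and 28.9 CPM in Control against 0.878, 0.579 and 0.908 CPM in 3A. Lhfpl2 rose from 0.610 ± 0.259 to 3.20 ± 0.791 CPM (log2 change 2.31, SE 0.39, edgeR adjusted p = 0.00948), and Lhfp was at 48.1 and 60.4 CPM (adjusted p = 0.271). Tmem159, a lipid droplet assembly factor, averaged 2.35 ± 0.485 CPM in Control with 2 counts in 3A.

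Among the genes on in Control, Selenom, Pgpep1, Gde1 and Tmprss13 code for enzymes or redox proteins. Selenom, a selenoprotein of the endoplasmic reticulum (chr11:3514684-3517351), stood at 10.4, 17.0 and 17.2 CPM in Control against 0.556, 0.441 and 0.312 CPM in 3A. Control 1 was the lowest of the Control libraries and still 18.7 times above the highest 3A library. Pgpep1, which removes pyroglutamate from peptide ends (chr8:70646435-70660388), stood at 15.8, 15.5 and 15.3 CPM in Control and held 3, 1 and 0 counts in 3A. Its 3 Control libraries differed by a factor of 1.04, the smallest spread of the set. Gde1, a glycerophosphodiester phosphodiesterase, averaged 3.68 ± 0.270 CPM in Control with 1 count in 3A. In the same family Gdpd1 rose from 28.4 ± 7.13 to 52.3 ± 4.85 CPM (log2 change 0.82, SE 0.18, edgeR adjusted p = 0.0234) and Gdpd3 from 5.64 ± 0.579 to 16.1 ± 2.38 CPM (1.43, SE 0.21, adjusted p = 0.00555). Gdpd5 was at 32.1 and 40.1 CPM and was not called (adjusted p = 0.284). Tmprss13, a transmembrane serine protease of stratified epithelia, averaged 5.99 ± 0.607 CPM in Control with 8 counts in 3A. The linked Tmprss4 fell by 0.96 on the log2 scale (SE 0.18, adjusted p = 0.0149), from 14.5 to 7.84 CPM, and Tmprss11e stood at 46.5 and 41.0 CPM (adjusted p = 0.555).

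Secreted regulators on in Control included a pair of signalling antagonists. Sfrp1, a secreted inhibitor of Wnt ligands (chr8:23411502-23449632), averaged 3.64 ± 0.636 CPM in Control and held 2, 1 and 3 counts in 3A. Sostdc1, an antagonist of BMP and Wnt signalling (chr12:36314139-36318452), averaged 3.32 ± 0.487 CPM in Control and held 0, 3 and 1 counts in 3A. Of the relatives looked up by symbol, Sfrp4 and Sost held 0 counts over all libraries and Sfrp5 and Sfrp2 held 1 and 3. Whether other antagonists take their place was not tested. Pi15, a secreted peptidase inhibitor of the CRISP family, averaged 4.26 ± 2.27 CPM in Control with 3 counts in 3A, and Control 1 was 2.33 times the mean of the other Control libraries, the largest such excess of the set. Serpinb6c, an intracellular serpin (chr13:33879816-33905708), stood at 11.0, 10.2 and 9.09 CPM in Control against 0.380, 0.855 and 0.284 CPM in 3A. On the same chromosome 1 near copy went the other way, as Serpinb6b rose from 29.8 ± 2.64 to 72.3 ± 9.86 CPM (log2 change 1.21, SE 0.16, edgeR adjusted p = 0.00420). Serpinb6a stood at 329 ± 155 and 604 ± 108 CPM and was not called (edgeR adjusted p = 0.0974), and Serpinb6d and Serpinb6e held 0 counts in every library. Because these copies are alike in sequence, the split of reads among them is uncertain.

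The rest of the set on in Control are membrane, organelle and little-studied genes. Gpnmb, a glycoprotein of melanosomes and lysosomes (chr6:49036546-49070929), stood at 37.3, 18.5 and 14.3 CPM in Control against 0.644, 0.635 and 1.11 CPM in 3A. Control 1 was 2.27 times the mean of the other Control libraries. Its relative Pmel, a melanosome protein, was near 1 CPM and fell from 1.37 ± 0.103 to 0.699 ± 0.0774 CPM (log2 change -1.05, SE 0.27, adjusted p = 0.0436), while the melanocyte enzyme gene Tyr held 0 counts in every library. Of 6 melanocyte markers 2 reached 1 CPM, with sums of 3.10 to 3.67 CPM in Control against 1.67 to 2.21 CPM in 3A, and their part in the level of Gpnmb was not tested. Susd2, a membrane protein with a sushi domain (chr10:75636706-75644008), stood at 3.60, 3.49 and 3.28 CPM in Control and held 6, 2 and 1 counts in 3A. Susd4 rose from 12.5 ± 3.58 to 45.8 ± 3.11 CPM (1.81, SE 0.19, adjusted p = 0.00149), whereas Susd6 fell from 93.2 ± 9.14 to 60.6 ± 9.86 CPM (-0.69, SE 0.16, adjusted p = 0.0326). Susd1 was at 15.9 and 15.6 CPM (adjusted p = 0.673). Chchd10, a protein of the mitochondrial intermembrane space (chr10:75933130-75937747), stood at 1.45, 3.75 and 4.56 CPM in Control and held 5, 5 and 1 counts in 3A. Control 1 was low for it, at 0.348 times the mean of the other Control libraries. Spata24, named for spermatogenesis (chr18:35656689-35662186), stood at 2.46, 8.25 and 8.66 CPM in Control and held 0, 3 and 1 counts in 3A. There too Control 1 was the lowest, at 0.291 times the others. Fam149a (chr8:45336717-45382291) stood at 10.4, 6.92 and 6.83 CPM in Control and held 1, 0 and 0 counts in 3A, while Fam149b was at 22.4 and 24 CPM (adjusted p = 0.924).

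None of the relatives looked up for these genes, picked by symbol after the members were known, met the rule. Among symbol stems, only Fam was shared by 2 members, Fam149a and Fam83a, and that stem marks a naming class rather than a gene family. Spread within the on line was modest: the highest on library exceeded the lowest by a median factor of 1.5 in the set on in 3A and 1.43 in the set on in Control, and by a factor of at least 2 in 0 and 4 genes. Those 4 were Spata24, Chchd10, Gpnmb and Pi15, and in each of them Control 1 was the library apart. Control 1 against the mean of Control 2 and 3 ranged from 0.291 to 2.33 (median 0.859), above 1.5 in 5 of the 25 genes and below its inverse in 5.

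Switched genes lay on 16 of the 19 autosomes, with none on chromosomes 2, 4 and 5, which hold 857, 689 and 703 eligible genes. Chromosome 6 had the most, 6 of 486 eligible genes (1.23%, against 0.357% over all autosomes): 4 on in Control, Rab19, Gpnmb and Lhfpl4 among them, and Dnah6 and Ret on in 3A. Chromosomes 10 and 11 had 4 each, of 500 and 905 eligible genes. By the same thresholds 5 of 326 eligible X-linked genes (1.53%) passed, 4 of them higher in 3A, against 51 of 10368 on autosomes (0.492%) when the names left out are counted. Genes on in 3A had a median span of 50.3 kb and genes on in Control 17.2 kb, against 24.6 kb in the other eligible genes. These are counts and medians with no test of a difference.

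Only 4 of the 37 genes had another within 500 kb (10.8%), in 2 pairs that were both on in Control. Of the other eligible genes, 382 of 10331 (3.70%) lay that close to a switched gene, and gene density was similar, with a median of 8 eligible genes within 500 kb of a switched gene and 9 for the others. Within 100 kb no switched gene had another. The next closest pair, Gde1 and Tmem159 on chromosome 7, was 1397 kb apart and also on in Control. With the 14 genes left out by name counted as neighbours, 6 of the 37 (16.2%) had a switched gene within 500 kb, against 496 of 10317 other eligible genes (4.81%). Tspan15, left out in this way, lies 401 kb from H2afy2 and stood at 9.64 CPM in Control against 0.444 CPM in 3A. Igf2bp3, likewise left out, lies 14.3 kb from Gpnmb and stood at 31.4 ± 9.08 CPM in Control against 0.755 ± 0.0981 CPM in 3A. Malsu1, which lies next to Gpnmb and overlaps the end of Igf2bp3, was at 32 ± 4.2 and 30.2 ± 4.57 CPM (edgeR adjusted p = 0.576).

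On chromosome 3, Slc50a1 and Pbxip1 are 166 kb apart with 9 eligible genes between them, and none of the 9 was switched. Efna3, an ephrin, fell by 1.14 on the log2 scale (edgeR adjusted p = 0.00853), from 14.8 ± 0.978 to 7.13 ± 0.877 CPM, and the metalloprotease Adam15 by 0.74 (adjusted p = 0.0320), from 24.1 ± 1.58 to 15.2 ± 1.87 CPM. The other 7, among them Efna1, Shc1 and Pygo2, were not called, and log2 changes of the 9 ran from -1.14 to 0.24. Dpm3 and Efna1, whose bodies lie within 1.17 kb of Slc50a1 on either side, stood at 19.8 and 10.9 CPM (adjusted p = 0.135) and at 56.6 and 39.4 CPM (adjusted p = 0.114). Pmvk, a kinase of cholesterol synthesis 3.59 kb beyond Pbxip1, rose from 25.2 ± 5.45 to 42.8 ± 5.21 CPM (log2 change 0.70, SE 0.17, adjusted p = 0.0354). On the other side of Slc50a1, Krtcap2 at 18.3 kb was at 163 and 93.5 CPM (adjusted p = 0.121), and Trim46 at 21.9 kb fell from 7.39 ± 0.581 to 3.97 ± 1.16 CPM (-0.97, adjusted p = 0.0431). Beyond these, Muc1, a membrane mucin at 34.9 kb that was singled out after its values were seen, rose from 0.572 ± 0.0962 to 6.57 ± 0.923 CPM (3.44, adjusted p = 7.4e-04). All of these neighbours were still read in 3A, and the 4 nearest to Slc50a1 (Efna1, Dpm3, Krtcap2 and Trim46) had lower means there.

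Susd2 and Chchd10, on chromosome 10, are 289 kb apart with Cabin1, Ddt, Mif and Smarcb1 between them. None of these 4 was called by edgeR (3 had an unadjusted p under 0.05, and DESeq2 called 2, all lower in 3A), and their log2 changes ran from -1.24 for Mif to -0.14 for Cabin1. Mif, a cytokine-like protein, was at 490 ± 188 CPM in Control against 223 ± 80.7 CPM in 3A. Mmp11, a stromelysin that overlaps Chchd10 on the other strand, rose from 1.27 ± 0.415 to 4.2 ± 0.7 CPM (1.66, SE 0.28, edgeR adjusted p = 0.0100). It was higher where Chchd10 was off, in all 3 libraries of 3A, but without a stated strand setting reads of their overlap cannot be told apart.

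The surroundings of all 37 genes were read from the fit over 13704 tested genes, of which 7.52% were called higher and 7.39% lower in 3A by edgeR's quasi-likelihood test at a Benjamini-Hochberg adjusted p under 0.05. The 2 nearest tested coding genes on each side within 1 Mb gave 137 flanking genes. Of these, 118 differed by less than 2-fold and the median log2 change was -0.04, against -0.02 over all tested genes. Called in the direction of the switched gene were 18 (13.1%), and in the opposite direction 8 (5.84%). Beside the 12 genes on in 3A, 6 of 41 were called higher and 0 lower (2 lower at an unadjusted p under 0.05, 1 lower by DESeq2). Beside the 25 on in Control, 12 of 96 were called lower and 8 higher. Leaving out Control 1 raised the shares to 27.5% and 23.9%, where 26.2% of all tested genes were called higher and 25.8% lower. With each of the other 5 libraries left out, 5.07% to 7.25% of flanking genes were called in the direction of the switched gene and 1.45% to 4.35% in the opposite one, against 2.26% to 4.64% of all tested genes in either direction. DESeq2 called 15.1% with the switched gene, where it called 9.64% of all genes higher and 11.2% lower. With no filter on low counts the share was 9.15%, against 3.95% and 4.22%. The difference in share was not tested. Of the 26 flanking genes called, 7 stayed called with each of the 6 libraries left out in turn: Abhd15, Defb41, Fxyd2, Nedd9, Prob1, Sorbs2 and Tnfaip2.

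**Figure D4:**
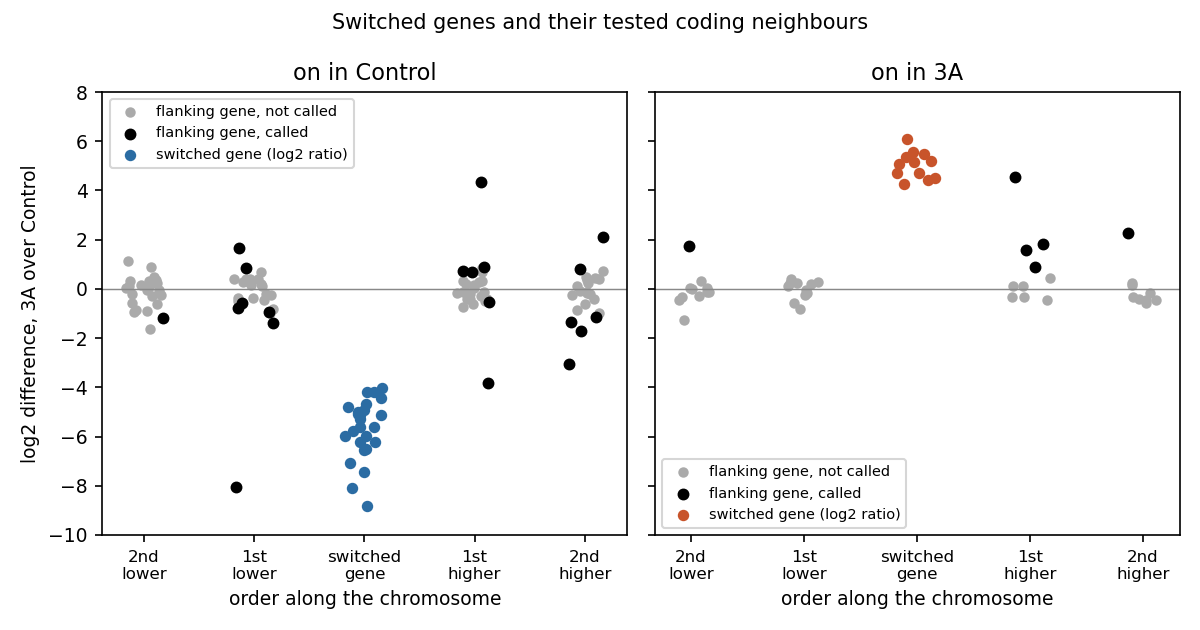
Log2 difference of 3A over Control (y) for switched genes and for the 2 nearest tested coding genes on each side (x, in order along the chromosome), left for genes on in Control and right for genes on in 3A. Black points are flanking genes called by edgeR, grey ones are not called, and most flanking genes lie near 0 beside switched genes at 4.0 or more in size.

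Some close neighbours did go with the switched gene. Prob1, a proline-rich gene 1.45 kb from Spata24, held 17, 45 and 25 counts in Control 1, 2 and 3 and 0 in all of 3A. With 3 counts over the group taken as the floor (0.0284 CPM), it was at least 35.5-fold lower in 3A, and it missed the rule by its low level in Control (1.00 CPM). On the other side of Spata24, 1700066B19Rik at 41.0 kb fell from 0.558 to 0.0666 CPM (log2 change -3.05, edgeR adjusted p = 0.0118). With each library left out in turn, 1700066B19Rik stayed called in 4 of 6 fits. The nearer Dnajc18 (8.92 kb) and Paip2 (39.5 kb) were not called. Tnfaip2, a TNF-induced gene 10.8 kb from Exoc3l4, stood at 101, 58.5 and 63.2 CPM in Control against 204, 246 and 235 CPM in 3A (log2 change 1.57, SE 0.20, edgeR adjusted p = 0.00356). The antisense transcript Gm10425, which overlaps Exoc3l4 and was singled out after its values were seen, stood at 0.104 and 4.84 CPM, so reads of the overlap cannot be told apart. Abhd15, an alpha/beta hydrolase gene that overlaps Gm10392, stood at 0.101, 0.0323 and 0.0780 CPM in Control against 1.67, 1.71 and 2.01 CPM in 3A (4.55, SE 0.41, adjusted p = 9.9e-04). Further away, Fxyd2, a regulator of the sodium pump 52.1 kb from Tmprss13 and likewise picked after its values were seen, stood at 2.39, 5.69 and 5.93 CPM in Control against 0.263, 0.441 and 0.340 CPM in 3A (-3.83, SE 0.49, adjusted p = 0.00356). Dscaml1, 79.0 kb from Tmprss13 on the same side, fell too (-1.71, adjusted p = 0.0141). So did Tmprss4, 115 kb away on the other side (-0.96), while Mpzl3 at 242 kb was not called (adjusted p = 0.165). With each library left out in turn, Dscaml1 stayed called in 3 of 6 fits and Tmprss4 in 4. Smaller falls beside other genes on in Control included those of Inpp5j (-1.40) next to Selenom, Klc2 (-0.77) next to Pacs1 and Setd5 (-0.59) next to Lhfpl4. With each of the 6 libraries left out in turn, Inpp5j and Setd5 stayed called in 1 fit each and Klc2 in 2. Stx19, 30.0 kb from Pros1, was called higher (1.75) at levels of only 0.106 and 0.378 CPM. Arl13b, nearer to Pros1 at 7.27 kb, was at 46.0 and 52.0 CPM and was not called (adjusted p = 0.642). Other neighbours went against the switched gene: beside genes on in Control, 8 were called higher, against 12 called lower. Among the 8, not chosen by distance, were Sorbs2 (log2 change 2.10, 125 kb away) and Tlr3 (0.884, 13.4 kb) beside Fam149a. Another was Tra2a (0.796, 173 kb) beside Gpnmb. With libraries left out, Sorbs2 stayed called in all 6 fits, Tlr3 in 3 and Tra2a in 2.

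Within 60 kb, 27 of the 37 switched genes (73.0%) had another gene at 0.5 CPM or more in both lines, 84 such neighbours in all, against 87.8% of the other eligible genes. Akip1 is the clearest case: its start is 85 bases from that of St5 on the opposite strand, and the 69 bases shown for Akip1 lie between them. St5, a regulator of MAP kinase signalling, stood at 29.7, 25.4 and 22.6 CPM in Control against 23.1, 19.3 and 20.7 CPM in 3A (log2 change -0.37, SE 0.15, edgeR adjusted p = 0.128). In 3A the transcript on one side of that stretch was read at 2 counts while the other side stayed near its Control level. Head-to-head starts within 1000 bases were found for that gene alone among the 37 (2.70%), against 1196 of 10331 other eligible genes (11.6%). Sf3b2, a splicing factor gene 0.812 kb from Pacs1, was at 298 and 317 CPM (adjusted p = 0.923). Smtn, 0.171 kb from Selenom, was at 80.0 and 103 CPM.

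Some switched genes overlap an active gene. Rcbtb2 overlaps Rb1, the retinoblastoma gene, on the other strand, and Rb1 was at 29.5 CPM in Control against 27.9 CPM in 3A (edgeR adjusted p = 0.542). H2afy2 overlaps Aifm2 (26.6 and 23.3 CPM) and Cnp overlaps Dnajc7 (153 and 132 CPM), both on the other strand. In 3A, where the 3 partners stayed active, Rcbtb2 held 3 counts in all, Cnp 11 and H2afy2 49. With the strand setting not stated, reads of the overlapped parts could fall to either gene.

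Genes known for keeping promoters open or shut were looked at as 3 lists. Of 15 tested genes of DNA methylation and its readers, 0 were called higher and 1 lower by edgeR (4 and 4 at an unadjusted p under 0.05, 0 and 1 by DESeq2), with a median log2 change of -0.16. The maintenance methyltransferase gene Dnmt1 stood at 149 ± 53.6 and 235 ± 11.5 CPM (adjusted p = 0.0926), its partner Uhrf1 at 54.3 ± 15.4 and 81.6 ± 7.25 CPM (adjusted p = 0.0896) and the de novo enzyme gene Dnmt3b at 1.83 ± 0.499 and 3.20 ± 0.212 CPM (adjusted p = 0.0787). Of 26 tested Polycomb and antagonist genes, 0 were called higher and 1 lower (1 and 3 at an unadjusted p under 0.05, 0 and 2 by DESeq2), with a median of 0.00. That gene was Kdm6b, a demethylase of the Polycomb mark, which fell from 62.8 ± 4.78 to 40.3 ± 7.44 CPM (-0.72, SE 0.18, adjusted p = 0.0412). Of 15 tested genes of heterochromatin silencing, 0 were called in either direction by edgeR (2 higher and 1 lower at an unadjusted p under 0.05 and by DESeq2), with a median of 0.04. Of all tested genes 7.52% were called higher and 7.39% lower. The lists are too short for their counts of calls to be told from these shares, and no list was tested as a set. Among the switched genes themselves, H2afy2 codes for a chromatin protein and was off in 3A.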

How the data were processed

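The file the authors deposited lists unnormalized read counts, 49315 Ensembl genes by 6 libraries (3 Control, 3 of 3A). The submitters' processing notes name featureCounts, Trim Galore, limma and edgeR without roles, and mm10 beside human builds. Aligner, annotation release and strand setting are not stated there. GENCODE M21 (GRCm38) matched 49056 IDs and not 259, and gave types and 1-based positions. CPM was counts over column totals. The rule needed a mean of 2 CPM in a group and a ratio of 16 with 0.05 CPM added. Flanking genes and lists were read from edgeR 4.0.16 in R 4.3.3 (filterByExpr, TMM, glmQLFit, glmQLFTest, group as the only term) over 13704 genes with Benjamini-Hochberg adjustment, tested on simulated data. Members and lists were chosen with earlier results of these data known. Values in every library are given for the 12 genes on in 3A, the 12 on in Control with most CPM per kb of exon, genes within 500 kb of another, shared symbol stems and the 4 genes on each side of the threshold. Called flanking genes were to be named by distance, up to 10. Those named do not all follow that order, and some nearer ones are left out. Depth bounds low values, since 1 count is 0.0276 to 0.0390 CPM, and intervals cover counting error only. Alternatives were other thresholds, scalings and filters, DESeq2 1.42.0, a replicate block and each library left out. Results for a pair of single genes are not reported here.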

Additional observations from a re-analysis of the deposited data

How the results depend on the processing

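The counts of switched genes follow the thresholds. On in 3A were 12, and 39 at a ratio of 8, 7 at a ratio of 32, 19 at a minimum of 1 CPM, 7 at 5 CPM, 0 with 0.5 CPM added to both means and 7 when the lowest on library was set against the highest off library, which lost Adgrf5, Cntnap5a, Ly9, Moxd1 and Pros1. On in Control were 25, and 52 at a ratio of 8, 15 at 5 CPM and 10 with 0.5 CPM added; the ratio of 32, the minimum of 1 CPM, TMM scaling and the strict comparison of libraries gave 18 to 33. With each library left out the counts were 12 to 16 and 22 to 27. Switched genes with another near were 4 within 500 kb, 0 within 100 kb, and 11 at a ratio of 8. Genes called higher were 1031, with 346 to 3751 when a library was left out, and genes called lower 1013, with 318 to 3690; the highest values came without Control 1. DESeq2 called 1765 lower. Flanking genes called with the switched gene were 18, with 7 to 38 when a library was left out and 11 with 1 gene on each side. Those called in the opposite direction were 8, with 2 to 33. The cause of these shifts was not tested.

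Deviations from the group mean correlated at -0.66, -0.419 and -0.375 between same-numbered libraries and at -0.415 to 0.537 between the others. Deviations of 3 libraries from their own mean are bound to each other, so these values cannot decide whether the numbers pair the libraries. With the replicate block, 142 genes were called higher and 146 lower, and 2 flanking genes with and 2 against the switched gene. No result reversed its direction. Of the log2 ratios of single switched genes under these alternatives 224 moved by less than 1 SD of the on libraries and 72 by more, and of the called flanking genes' values 180 kept the call and 106 lost it. In 1 gene on in 3A and 8 on in Control the off line held 1 to 3 counts, so depth limits how far their ratios can be known.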
